A study of Mus musculus with 8 samples.

Results

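The genes described here are 4 cytokine-induced inhibitors of signalling (Socs1, Socs2, Socs3 and Cish) and 6 STAT transcription factors (Stat2, Stat3, Stat4, Stat5a, Stat5b and Stat6). They were taken by gene symbol from the expression tables of tumor-associated macrophages (TAMs), where they made up 10 of 21051 listed genes. TAMs were sorted as CD45+F4/80+ cells on day 14 from s.c. B16 melanomas, a mouse melanoma line, and total RNA was sequenced in 4 libraries of WT littermates (TAM-WT) and 4 of Colec11-/- mice (TAM-KO). All mice were on the C57BL/6 strain and carried the same tumor line. Colec11 encodes the collectin CL-11, a soluble pattern recognition molecule that can start complement activation, and its loss was not limited to macrophages, so tumor, stroma and lymphocytes developed in the same deficient host. Mice were males in early adulthood, by the general statement of the methods, and the labels repeat neither age nor sex. The comparison asked how the TAM transcriptome differed when the host lacked CL-11.

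Cytokine receptors without kinase activity of their own signal through JAK kinases, which phosphorylate STAT proteins that then enter the nucleus and switch genes on. SOCS proteins and CISH are among the genes so induced, and they close the loop by blocking the kinase or the receptor or by marking them for degradation. In macrophages, interferons, IL-6 and IL-10, and IL-4 and IL-13 act mainly through different STATs, and the balance between these inputs is a common way to describe inflammatory against alternative activation.

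The windows around the start of 4 of these genes are shown first because they hold the letters that STAT complexes are known to bind, in 2 genes that were higher in TAM-KO (Socs1, Stat2) and in 2 that did not pass the test (Cish, Socs3). The windows run from 250 bases before the start to 50 bases after it, 5′ to 3′ on the gene's strand, from RefSeq on GRCm38.p6. The start used is not always the outer end of the gene. The Socs3 window lay wholly inside the span of its gene (117966079 to 117970336). Both Stat5b windows also lay inside theirs (100780731 to 100859004). Capitals mark matches on either strand to TTCNNNGAA or TTCNNNNGAA (the GAS type of site) or to GAAANNGAAA (the core of the interferon-stimulated response element, ISRE).
Socs1, chr16:10785487-10785786, minus strand: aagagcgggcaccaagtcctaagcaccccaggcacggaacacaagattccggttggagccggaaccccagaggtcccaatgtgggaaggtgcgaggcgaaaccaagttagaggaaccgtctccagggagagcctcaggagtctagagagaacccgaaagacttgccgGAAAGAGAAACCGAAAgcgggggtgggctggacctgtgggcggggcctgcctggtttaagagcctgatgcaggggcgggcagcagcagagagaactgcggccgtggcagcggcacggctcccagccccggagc
Stat2, chr10:128270248-128270547, plus strand: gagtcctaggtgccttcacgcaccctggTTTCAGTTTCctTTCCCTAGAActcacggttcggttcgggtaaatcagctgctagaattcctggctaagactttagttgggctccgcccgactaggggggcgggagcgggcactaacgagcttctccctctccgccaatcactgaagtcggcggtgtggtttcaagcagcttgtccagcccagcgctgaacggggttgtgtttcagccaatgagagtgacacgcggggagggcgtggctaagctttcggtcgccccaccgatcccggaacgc
Cish, chr9:107296409-107296708, plus strand: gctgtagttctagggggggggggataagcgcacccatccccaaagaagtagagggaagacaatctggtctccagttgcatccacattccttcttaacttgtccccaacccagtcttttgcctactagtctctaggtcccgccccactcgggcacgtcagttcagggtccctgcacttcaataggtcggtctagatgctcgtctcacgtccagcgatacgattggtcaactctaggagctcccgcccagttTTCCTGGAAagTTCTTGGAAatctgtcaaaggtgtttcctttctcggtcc
Socs3, chr11:117969317-117969616, minus strand: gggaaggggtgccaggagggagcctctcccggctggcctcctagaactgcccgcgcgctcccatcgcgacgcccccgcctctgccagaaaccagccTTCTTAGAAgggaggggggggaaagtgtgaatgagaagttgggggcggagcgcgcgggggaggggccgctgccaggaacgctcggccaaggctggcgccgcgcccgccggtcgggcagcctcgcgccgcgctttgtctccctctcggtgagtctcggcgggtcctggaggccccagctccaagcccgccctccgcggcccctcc
The Socs1 capitals are 2 overlapping ISRE cores, at bases 168 to 177 and 174 to 183 of the window. In Stat2 the ISRE core lay on the opposite strand at bases 29 to 38, followed by TTCNNNNGAA at bases 41 to 50. Cish held TTCNNNGAA at bases 251 to 259 and 262 to 270, the former beginning at the start site itself, and Socs3 held it at bases 97 to 105. Windows were found for 9 of the 10 genes (12 windows in all, with 2 each for Stat4, Stat5a and Stat5b), and Socs2 had no entry. The downstream window of Stat4 also held an ISRE core, at bases 154 to 163, and the windows of Stat3, Stat5a, Stat5b and Stat6 held none of the 3 motifs. Of all 32851 windows, 8.3% held TTCNNNGAA, 6.95% TTCNNNNGAA, 3.44% GAAANNGAAA and 17.3% any of them, so a match is a description of the sequence and not evidence of binding.

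The depth of the 7 libraries with complete tables was 16225362 to 17280267 expected counts on genes. The table of TAM-KO replicate 1 lacked 5311 genes, Socs1, Socs3 and Cish among them, and 7 of the 10 genes were therefore tested on 8 libraries and these 3 on 7. Socs1 alone of the 3 was found in the table of the whole series, which supplied its TAM-KO replicate 1 value for description and for an added fit. The summed FPKM (fragments scaled to transcript length and library size) of 6 macrophage markers was 3910 to 4751 in TAM-WT and 3933 to 4536 in TAM-KO replicates 2 to 4, with Cd68 the highest in TAM-WT and C1qa in TAM-KO. The 5 melanoma genes, with Pmel the highest by FPKM, summed to 1873 to 4235 FPKM in TAM-WT and 3643 to 4878 in TAM-KO, so melanocyte genes were high in every library of the sort. Colec11 had 0 to 4 expected counts in TAM-WT and 1 in each TAM-KO library, too few to check the genotype. With 4 mice per group by the figure legend, each library stands for a separate mouse, and the labels named no batch.

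At the level of the whole group, 2 of the 10 genes passed the test between TAM-KO and TAM-WT, Socs1 and Stat2, and both were higher in TAM-KO. Socs1 was tested here on 7 libraries, without TAM-KO replicate 1. With values of that library filled in, 0 of the 10 were called, against 8.95% of all genes. The edgeR adjusted p was then 0.0592 for Socs1 and 0.0531 for Stat2. The test was edgeR's quasi-likelihood test with Benjamini-Hochberg adjustment over 12412 genes, and a gene was called at an adjusted p of at most 0.05. Among all genes tested, 9.81% were called, 4.58% higher and 5.24% lower. Socs1 alone also met the study's definition of a DEG (fold change of at least 2), against 2.53% of all genes. The median log2 fold change was 0.07 over the 10 genes, -0.25 over the 4 inhibitors and 0.15 over the 6 STATs, against 0.00 over all genes. In bulk RNA, fewer cells of a type and less RNA per cell cannot be told apart. The study named Socs1 and Stat2 among its M1 marker genes from these same libraries, so their direction here is not independent evidence.

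**Figure D1:**
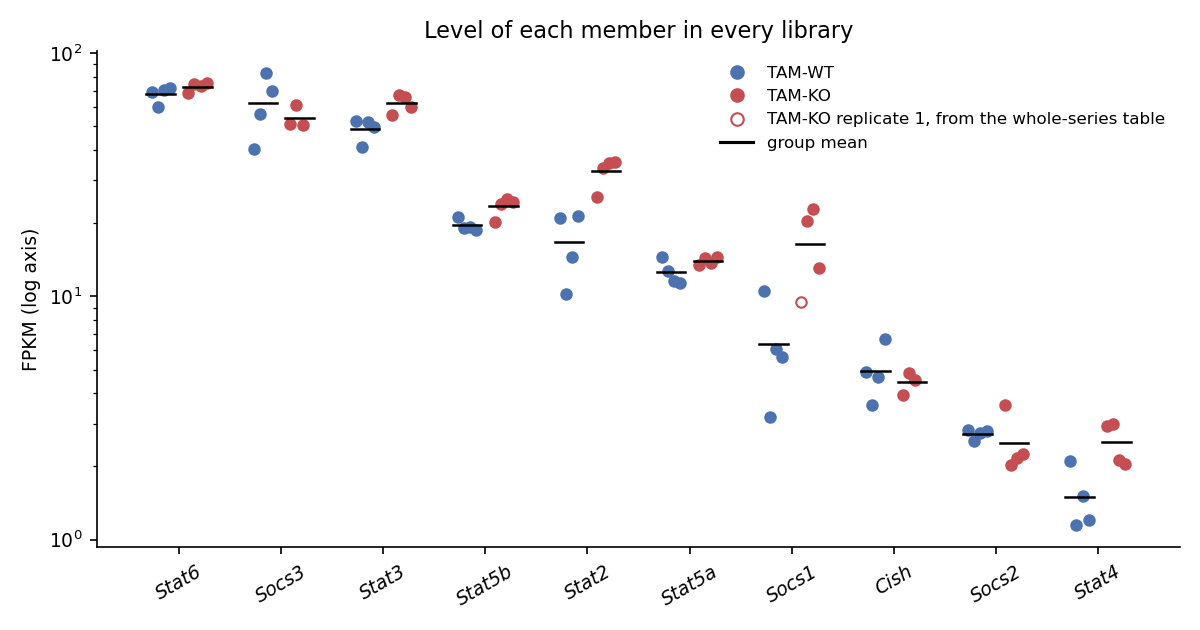
FPKM (log axis) of each of the 10 genes in every library, in order of the TAM-WT mean, with TAM-WT in blue, TAM-KO in red, black bars for group means and an open circle for the Socs1 value of TAM-KO replicate 1 taken from the table of the whole series. Stat2 and Stat3 are the 2 genes whose groups do not overlap, and the open Socs1 circle at 9.51 lies below the highest TAM-WT value of 10.49.

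By FPKM, which is per length and so allows genes to be set beside each other, the TAM-WT levels ran from Stat6 (67.8 ± 5.19, SD, n = 4) and Socs3 (62.2 ± 18.1) through Stat3 (48.9 ± 5.38), Stat5b (19.6 ± 1.12), Stat2 (16.8 ± 5.4), Stat5a (12.6 ± 1.47), Socs1 (6.35 ± 3.04), Cish (4.95 ± 1.28) and Socs2 (2.72 ± 0.124) to Stat4 (1.49 ± 0.437). The ranges over the TAM-WT libraries overlapped for the neighbours Stat6 and Socs3, Socs3 and Stat3, Stat5b and Stat2, Stat2 and Stat5a, and Socs1 and Cish, so the order within these pairs was not separated beyond their spread. The FPKM of TAM-KO did not overlap that of TAM-WT for 2 of the 10 genes, Stat2 and Stat3, and for 18.9% of all genes tested.

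Socs1, which inhibits JAK kinases directly and is best known as a brake on interferon gamma signalling, had the highest fold change of the 10. Its FPKM was 10.49, 3.2, 6.06 and 5.65 across the 4 TAM-WT libraries in the order of their numbers, and 20.42, 22.82 and 13.08 across TAM-KO libraries 2, 3 and 4, with 54 to 173 expected counts in TAM-WT and 216 to 374 in these TAM-KO libraries. On these 7 libraries, all TAM-KO values lay above all TAM-WT values, and the log2 fold change was 1.45 (SE 0.34, fold 2.72, edgeR adjusted p = 0.0393). The value of TAM-KO replicate 1 in the table of the whole series was 9.51 FPKM (161 expected counts), which is below TAM-WT replicate 1. The rule that selected these genes takes this value for TAM-KO replicate 1. In the fit with such values filled in, which was added to the planned fits, the log2 fold change of Socs1 was 1.25 (SE 0.36, edgeR adjusted p = 0.0592). In that fit 0 of the 10 genes were called by edgeR, against 8.95% of all genes, and 3 had an unadjusted p under 0.05. DESeq2 without the filled values called 3 of the 10, and it called 18.2% of all genes.

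Leaving out each of its 7 libraries in turn, Socs1 passed in 3 of 7 fits, with log2 fold changes of 1.21 to 1.76. The edgeR adjusted p rose to 0.104 without TAM-WT replicate 3 and to 0.0872 when replicate 4 of that group was dropped. It was 0.13 without replicate 2 of TAM-KO and 0.133 without replicate 3. The number of calls over all genes moved in these fits as well, from 1218 with every library to 151 and 416 on dropping replicate 3 or 4 of TAM-WT, and to 77 on dropping either replicate 2 or 3 of TAM-KO.

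Socs3, the inhibitor recruited to the gp130 chain of IL-6 type receptors, was the most abundant of the 4 inhibitors, with FPKM of 40.4, 56.09, 82.61 and 69.84 in TAM-WT against 50.9, 61.13 and 50.74 in the TAM-KO libraries that had a value. All TAM-KO values fell within the TAM-WT range (log2 fold change -0.32, SE 0.25, edgeR adjusted p = 0.416). Within a library, Socs3 stood at 3.85, 17.5, 13.6 and 12.4 times the FPKM of Socs1 across the TAM-WT libraries. For TAM-KO the ratios were 2.49, 2.68 and 3.88, so TAM-WT replicate 1 sat with the TAM-KO libraries and the groups overlapped.

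Cish, a feedback inhibitor of STAT5-activating receptors, had FPKM of 4.89, 3.58, 4.66 and 6.67 in TAM-WT against 3.92, 4.85 and 4.54 in the TAM-KO libraries that had a value. The TAM-KO values lay inside the TAM-WT range (log2 fold change -0.28, SE 0.22, edgeR adjusted p = 0.414). Socs2, which is known as a brake on growth hormone signalling, had 2.81, 2.54, 2.74 and 2.79 FPKM in TAM-WT and 3.59, 2.02, 2.17 and 2.25 in TAM-KO. TAM-KO replicate 1 was above every TAM-WT library and the other 3 were below them all, and the test gave a log2 fold change of -0.21 (SE 0.19, edgeR adjusted p = 0.474).

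**Figure D2:**
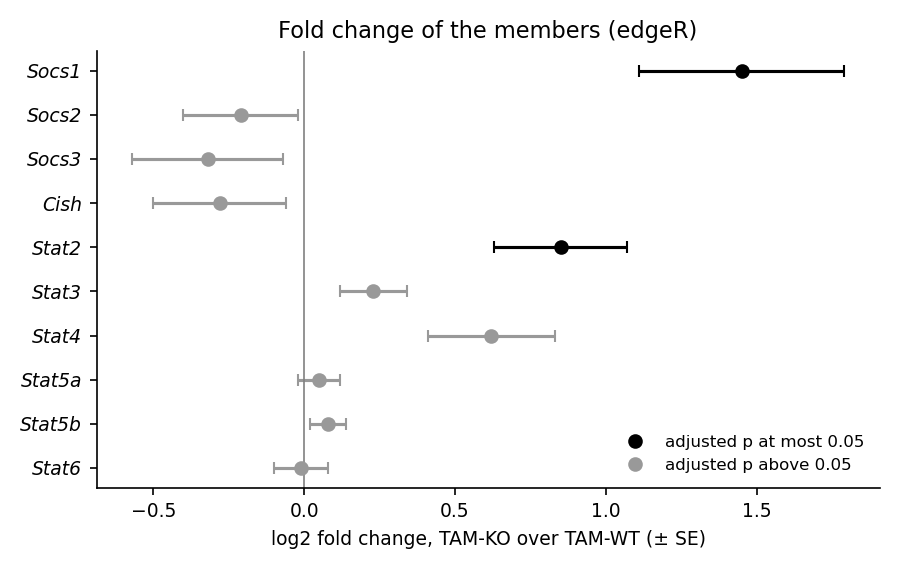
Fold change of the 10 genes between TAM-KO and TAM-WT on the log2 scale (x axis), as points with standard errors from edgeR, black where the adjusted p was at most 0.05 and grey otherwise. Socs1 (1.45) and Stat2 (0.85) are the black points, while Socs2, Socs3 and Cish lie between -0.32 and -0.21. Socs1, Socs3 and Cish are drawn without TAM-KO replicate 1. With that library filled in, neither Socs1 nor Stat2 had an adjusted p of at most 0.05.

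Stat2, which pairs with IRF9 in the complex that carries type I interferon signals to the ISRE, had FPKM of 20.94, 10.22, 14.54 and 21.5 in TAM-WT and 25.59, 33.77, 35.45 and 35.79 in TAM-KO. Each TAM-KO library exceeded each TAM-WT library, TAM-KO replicate 1 by the least. The log2 fold change was 0.85 (SE 0.22, fold 1.8, edgeR adjusted p = 0.0442), below the fold set for a DEG. Of the 8 fits with a library left out, 3 kept the call, and log2 fold changes were 0.66 to 1.0. The edgeR adjusted p was 0.12 on dropping TAM-WT replicate 3, and 0.0551, 0.126, 0.123 and 0.0757 on dropping replicate 1, 2, 3 or 4 of TAM-KO. With TAM-KO replicate 1 filled in for other genes, the Stat2 counts were the same and its edgeR adjusted p was 0.0531.

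**Figure D3:**
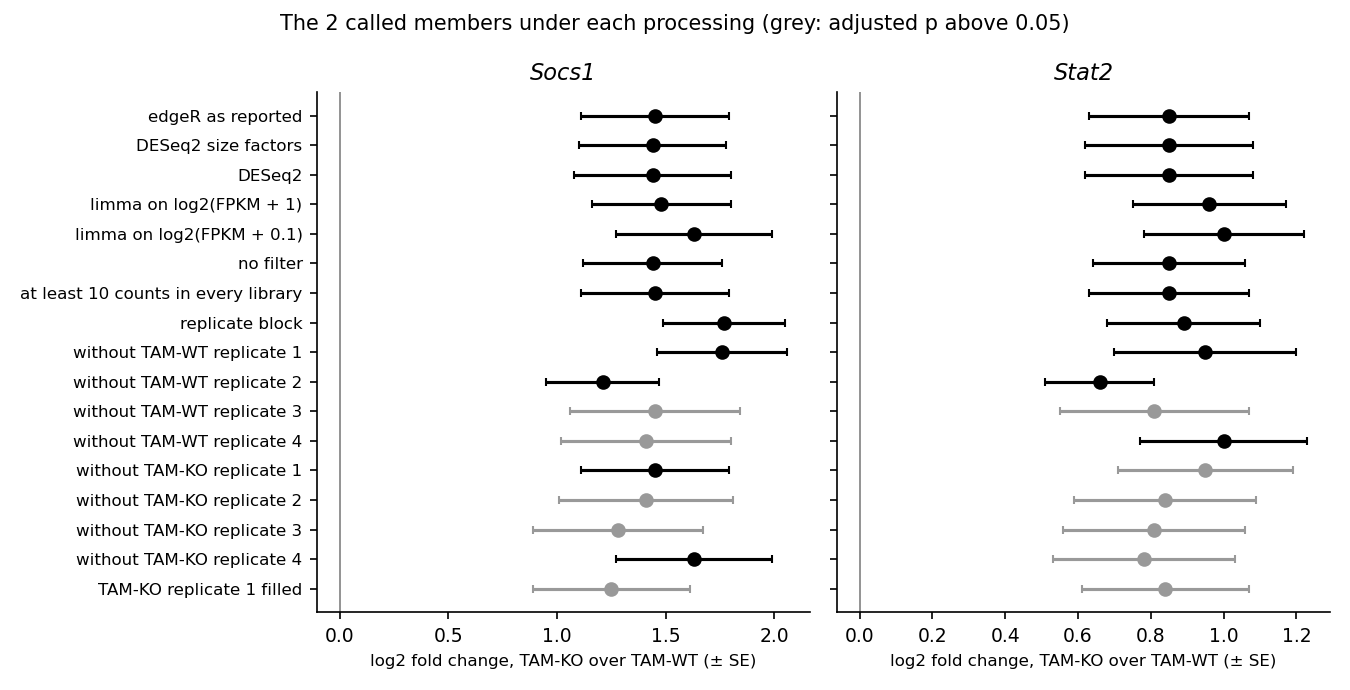
Log2 fold change (± SE) of Socs1 and Stat2 between TAM-KO and TAM-WT under each of 17 fits, 1 fit per line, with black for an adjusted p of at most 0.05 and grey above it. All points lie above 0, from 1.21 to 1.77 for Socs1 and from 0.66 to 1.0 for Stat2, with the fit without TAM-KO replicate 1 using the same 7 libraries for Socs1 as reported, and grey points are the fits without certain libraries and the fit with TAM-KO replicate 1 filled in.

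Stat3, which carries IL-6 and IL-10 signals, had FPKM of 52.75, 41.15, 52.28 and 49.55 in TAM-WT and 55.42, 67.49, 65.85 and 59.96 in TAM-KO. The groups did not overlap, but the difference was small in the count model (log2 fold change 0.23, SE 0.11, edgeR adjusted p = 0.183). On the FPKM scale the median of all genes was itself 0.09 (log2, pseudocount 1) higher in TAM-KO, and limma on log2(FPKM + 1) called Stat3 at 0.34 (adjusted p = 0.0472). Stat6, the transducer of IL-4 and IL-13, was the most abundant STAT of the 6, at 69.23, 60.17, 70.28 and 71.6 FPKM in TAM-WT and 68.49, 74.64, 73.17 and 75.21 in TAM-KO. Its groups overlapped and its log2 fold change was -0.01 (SE 0.09, edgeR adjusted p = 0.958), on either side of 0 depending on the fit. Set against Stat6 in the same library, Stat2 stood at 0.302, 0.17, 0.207 and 0.3 of its FPKM in TAM-WT and at 0.374, 0.452, 0.484 and 0.476 in TAM-KO, so the groups were also apart on a ratio that does not use library size.

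Stat5a and Stat5b, which transmit GM-CSF, IL-2 and growth hormone signals, are near-identical neighbours, 346 bases apart on chromosome 11 (Stat5b 100780731 to 100859004, Stat5a 100859351 to 100885169, GRCm38.p6), and Stat3 follows 1636 bases further on. The expected counts of Stat5a were not whole in any library while their sum with Stat5b was whole in 8 of 8 (tolerance 0.01), so reads that fit both genes had been divided between them and either value alone is uncertain. Stat5a had 14.56, 12.77, 11.54 and 11.39 FPKM in TAM-WT and 13.51, 14.35, 13.7 and 14.48 in TAM-KO, and Stat5b had 21.21, 19.09, 19.34 and 18.68 in TAM-WT and 20.13, 24.03, 25.09 and 24.53 in TAM-KO. For each gene the groups overlapped. The log2 fold changes were 0.05 (SE 0.07, edgeR adjusted p = 0.65) for Stat5a, 0.08 (SE 0.06, 0.411) for Stat5b and 0.07 (SE 0.06, 0.478) for their summed counts of 2033 to 2500 per library.

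Stat4, which mediates IL-12 signals and is best known from T cells and NK cells, had the lowest TAM-WT mean of the 10, while in TAM-KO its mean (2.52) was about that of Socs2 (2.51). Its FPKM was 2.1, 1.15, 1.51 and 1.2 in TAM-WT and 2.94, 3, 2.12 and 2.04 in TAM-KO, and TAM-KO replicate 4 was just below TAM-WT replicate 1. The log2 fold change of 0.62 (SE 0.21) did not pass (edgeR adjusted p = 0.0881), while DESeq2 gave an adjusted p of 0.0479.

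Genes of lymphocytes moved in the same libraries. The 7 T cell markers with a value in every library summed to 13.9, 2.59, 3.52 and 2.94 FPKM in TAM-WT and to 23.7, 41.1, 33.8 and 14.8 in TAM-KO. Of these 7, Cd28 had the highest mean FPKM in TAM-WT (1.93) and Cd3g in TAM-KO (10.3). Of the 8 markers tested, 0 were called by edgeR (7 at an unadjusted p under 0.05, 4 called by DESeq2, 6 with a higher estimate, median log2 fold change 2.43). The lower estimates were those of Cd28 (log2 fold change -0.87) and Cd4 (-0.29, not in the sum). Cd28 was among the 4 called by DESeq2 (adjusted p = 0.0103), in the direction opposite to the other 3. The 7 NK cell markers with a value in every library summed to 11.5, 0.33, 1.58 and 1.94 FPKM in TAM-WT and 13.3, 37.9, 36 and 8.21 in TAM-KO, with Gzmb the highest by FPKM, 1 of 4 tested called as higher and up to 5 of the 7 at 0 in a library. Gzmb, Prf1 and Klrd1 had the highest means of the list in both groups. Ncr1 was near 0 (mean FPKM 0.025 in TAM-WT and 0.085 in TAM-KO). Klrb1c, which is not in the sum, was also low (0.155 and 0.0867). Which cells the summed RNA came from was not tested. TAM-WT replicate 1 had the highest Socs1 and Stat4 of the TAM-WT libraries and the highest T cell and NK cell sums, TAM-WT replicate 2 the lowest of each, and the Socs1, T cell and NK cell values of TAM-KO were highest in replicates 2 and 3. Stat4 did not follow that order in TAM-KO, where it was 2.94 in replicate 1 and 2.12 in replicate 3. Stat2 did not follow this order in TAM-WT, where replicates 1 and 4 were about equal, nor in TAM-KO. There it was highest in replicate 4 (35.79), which had the lowest T cell and NK cell sums of TAM-KO (14.8 and 8.21). The part of lymphocyte RNA in the values of Socs1, Stat2 and Stat4 was not tested.

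**Figure D4:**
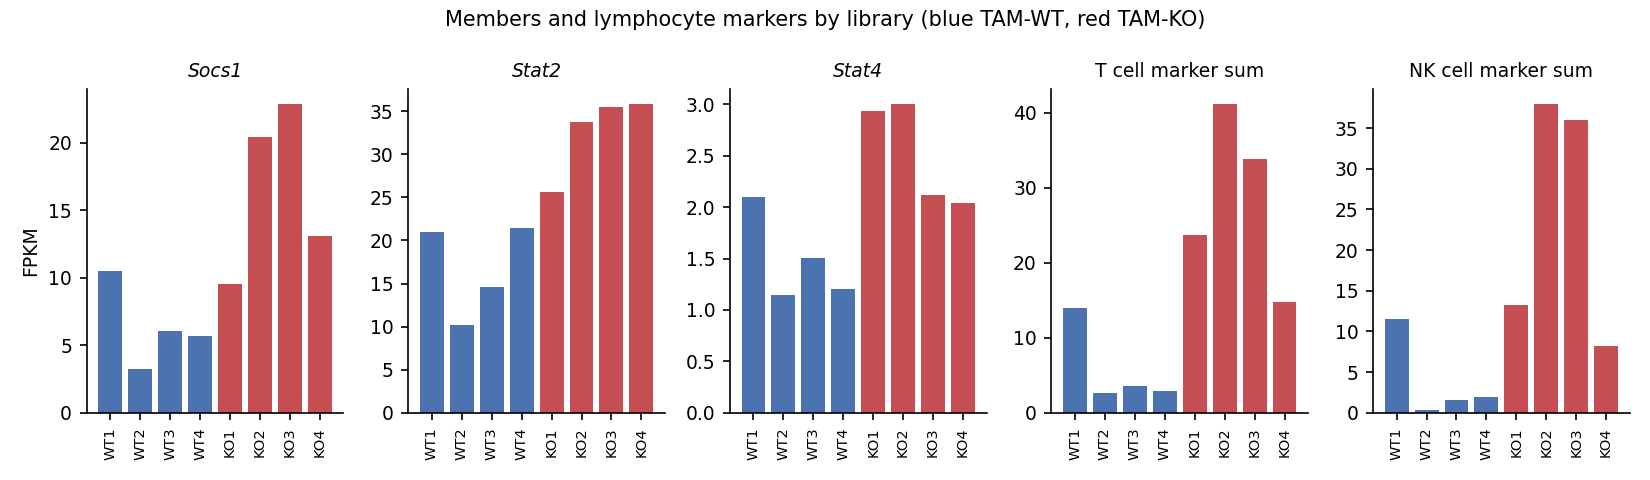
FPKM of Socs1, Stat2 and Stat4 and the summed FPKM of 7 T cell and 7 NK cell markers, 1 bar per library, with TAM-WT in blue and TAM-KO in red; the Socs1 and some marker values of TAM-KO replicate 1 come from the table of the whole series. TAM-WT replicate 1 stands above the other TAM-WT libraries in Socs1 (10.49), Stat4 (2.1) and the T cell sum (13.9), and in Stat2 it is level with replicate 4.

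The other lists give the summed markers of further cell types in each library. The melanoma sum was 4235 FPKM in TAM-WT replicate 2 and 1873 to 2527 in the other TAM-WT libraries. That replicate had the lowest Socs1, Socs2, Cish, Stat2, Stat3, Stat4 and Stat6 of its group. In TAM-KO the order was not the same for all of these, since replicate 2 had the highest melanoma sum (4878) and also the highest Stat3 and Stat4. It again had the lowest Socs2 and, among the TAM-KO libraries with a value, the lowest Cish. Neutrophil markers (5 genes, mostly S100a8 and S100a9) summed to 162 FPKM in TAM-KO replicate 1. The sum was 16.8 to 31.5 in the other TAM-KO libraries and 8.23 to 9.74 in TAM-WT. Ly6g, also in the sum, was near 0 (mean FPKM 0.0225 in TAM-WT and 0.07 in TAM-KO). Of its group, TAM-KO replicate 1 had the lowest Socs1, Stat2, Stat3, Stat5a, Stat5b and Stat6 and the highest Socs2. The B cell (3 genes), dendritic cell (5 genes), fibroblast (3 genes) and endothelial cell (3 genes) sums stayed at or under 10.1 FPKM in every library, with Cd79b the highest of the B cell and Kdr of the endothelial genes. Ccr7 and Col1a1, the dendritic cell and fibroblast markers with the most counts, had no value in TAM-KO replicate 1 and are not in these sums; their mean FPKM was 5.87 and 1.14 in TAM-WT and 4.91 and 1.31 in the other TAM-KO libraries. Their part in these results was not tested.

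Around the 10 genes, 9 lists of cytokine signalling genes held 86 genes, of which 3 had no value in the tables and 75 were tested, 50 of them on 7 libraries. Of these, 8 were called, 2 higher and 6 lower in TAM-KO, which is 10.7% against 9.81% of all genes, and the median log2 fold change was -0.02. On dropping TAM-WT replicate 3, or replicate 2 or 3 of TAM-KO, edgeR called 0 of them. At an unadjusted p under 0.05 there were 30, 24 and 22, while these fits called 1.21%, 0.617% and 0.617% of all genes. Of the signalling genes, 24 were called on dropping TAM-WT replicate 2 and also by DESeq2 on every library. Those fits called 22.2% and 18.2% of all genes. With each library left out in turn, single calls held in as few as 2 of 8 fits (Tyk2, Retnla) and at most 5 of 8 (Pparg), and Mrc1, tested on 7 libraries, held in 4 of 7. Where TAM-KO replicate 1 lacked a gene, its value from the table of the whole series is given below if listed there, but it did not enter the test. Groups did not overlap in FPKM for 23 of the 75, where the share of all genes was 18.9%. These shares are not like for like, since groups separate more easily with 3 TAM-KO values than with 4. Genes tested on 7 libraries were 50 of the 75, some with a filled value here, against 3016 of 12412 over all genes.

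Upstream of the STATs, 1 of 4 JAK kinases was called. Tyk2, the kinase of the type I interferon and IL-12 receptors, had 13.76 to 15.95 FPKM in TAM-WT and 17.67 to 20.51 in TAM-KO without overlap (log2 fold change 0.26, SE 0.07, edgeR adjusted p = 0.0426, and 0.0514 with TAM-KO replicate 1 filled in). Jak1, the most abundant of the 4, was at 41.05 to 52.27 FPKM in TAM-WT and 45.35 to 47.35 in TAM-KO (-0.16, SE 0.11, edgeR adjusted p = 0.389). Among the 24 receptors, 23 were tested and Il12rb1 was called, a chain of the IL-12 and IL-23 receptors. Its FPKM was 2.99, 0.7, 0.76 and 1.16 in TAM-WT and 3.99, 7.1, 8.33 and 3.97 in TAM-KO, again with TAM-WT replicate 1 highest of its group, and the log2 fold change was 2.06 on 7 libraries (SE 0.48, edgeR adjusted p = 0.0376). Il4ra, which receives the IL-4 signal for STAT6, had the most counts of the receptors, though not the highest FPKM, at 67.03 to 96.39 FPKM in TAM-WT and 69.79 to 105.54 in TAM-KO (-0.17, SE 0.2, edgeR adjusted p = 0.603).

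Of 17 cytokine ligands, 9 were tested and 2 were called, both lower. Osm, which encodes oncostatin M and was the most abundant ligand, had FPKM of 38.36, 48.31, 81.6 and 72.84 in TAM-WT against 18.79, 24.85 and 34.01 in the TAM-KO libraries tested (log2 fold change -1.33, SE 0.33, edgeR adjusted p = 0.0452). The value of 44.14 for TAM-KO replicate 1 in the table of the whole series overlaps the TAM-WT range, and with it the edgeR adjusted p was 0.0613. Il12b, the shared subunit of IL-12 and IL-23, had 1.49, 0.59, 1.02 and 1.08 FPKM in TAM-WT against 0.35, 0.21 and 0.42 in TAM-KO (-1.77, SE 0.39, edgeR adjusted p = 0.0329). Ifng, a main inducer of Socs1, was picked for mention after its values were seen, with FPKM of 2.49, 0, 0.12 and 0 in TAM-WT and 3.59, 7.77, 6.11 and 2.15 in TAM-KO. It was highest in the libraries with the highest T cell and NK cell sums and was not called (edgeR adjusted p = 0.102).

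**Figure D5:**
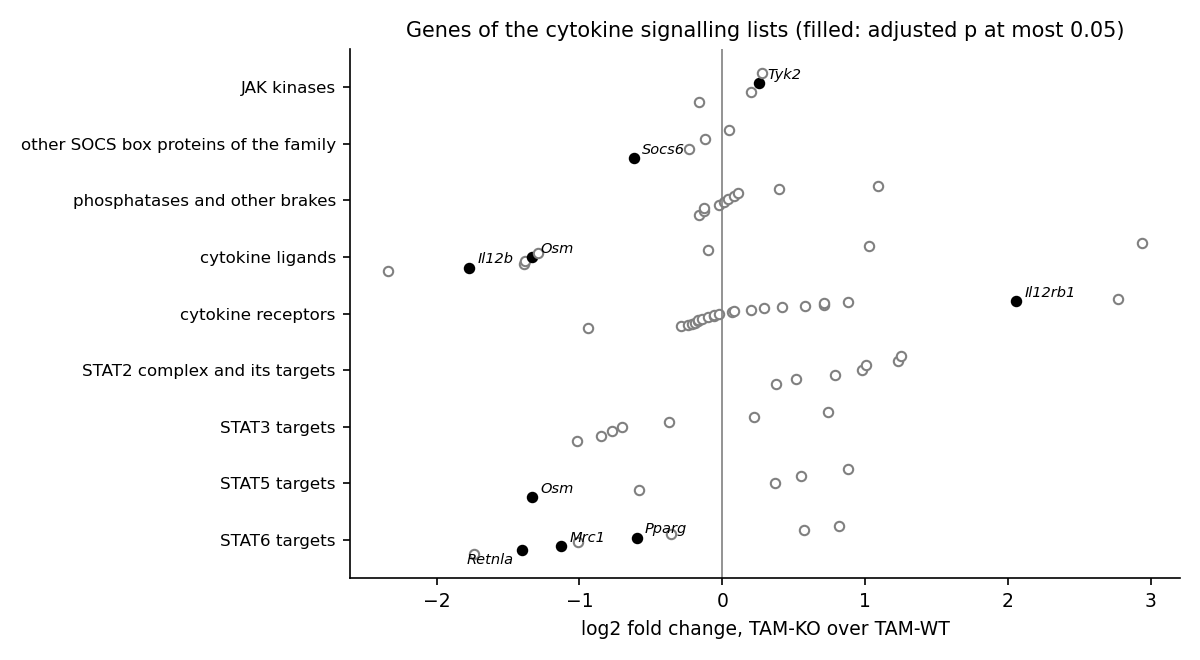
Log2 fold change between TAM-KO and TAM-WT (x axis) of the tested genes in 9 cytokine signalling lists, 1 point per gene, filled and named where the adjusted p was at most 0.05; Osm stands in 2 lists. All 7 genes of the STAT2 list lie above 0 with no filled point, and the 3 filled STAT6 targets lie below 0.

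Among the other brakes, Socs6, a relative of the SOCS genes above that is not a classical cytokine-induced inhibitor, was the most abundant of 4 tested and was lower in TAM-KO. It had 15.28, 11.42, 17.57 and 16.81 FPKM in TAM-WT and 10.67, 10.13, 10.91 and 11.39 in TAM-KO, with TAM-WT replicate 2 barely above the TAM-KO range (-0.62, SE 0.15, edgeR adjusted p = 0.0338). Socs4, Socs5 and Socs7 did not pass. By edgeR 0 of 10 phosphatases and other brakes were called (2 at an unadjusted p under 0.05, 2 called by DESeq2), where Ptpn6, which encodes the phosphatase SHP-1 and was the most abundant, had 92.75 to 136.65 FPKM in TAM-WT and 141.57 to 171.78 in TAM-KO replicates 2 to 4 (0.40, SE 0.13, edgeR adjusted p = 0.0867).

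Downstream, in the STAT2 list, 7 of 7 tested genes had a higher estimate in TAM-KO (median log2 fold change 0.98) and edgeR called 0 of them, with 5 at an unadjusted p under 0.05 and 3 called by DESeq2. Irf7, the most abundant, had 67.56, 23.25, 39.04 and 79.66 FPKM in TAM-WT and 84.26, 177.39, 143.31 and 132.69 in TAM-KO (1.25, SE 0.36, edgeR adjusted p = 0.0538). As with Stat2, TAM-WT replicate 2 was lowest and replicate 4 highest of TAM-WT, and TAM-KO replicate 1 was lowest of TAM-KO. Irf9, the partner of STAT2, was picked for mention after its values were seen, at 20.17 to 30.71 FPKM in TAM-WT and 34.6 to 39.22 in TAM-KO replicates 2 to 4 (0.38, SE 0.15, edgeR adjusted p = 0.126).

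Of 7 STAT3 targets, edgeR called 0 (6 at an unadjusted p under 0.05, 5 called by DESeq2), 5 of them with a lower estimate (median log2 fold change -0.70). Junb, the most abundant and also an immediate early gene, had 247.5 to 468.97 FPKM in TAM-WT and 202.34 to 318.06 in TAM-KO (-0.85, SE 0.25, edgeR adjusted p = 0.0676). Of 5 STAT5 targets, Osm was called, and Ccnd2, the most abundant by counts, had 19.01 to 37.49 FPKM in TAM-WT and 34.94 to 48.14 in TAM-KO (0.55, SE 0.19, edgeR adjusted p = 0.098).

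Of 9 STAT6 targets, 8 were tested and 3 were called, all lower in TAM-KO, while Stat6 itself was not called. Mrc1, the mannose receptor CD206, had 430.68 to 463.68 FPKM in TAM-WT and 269.65, 161.51, 211.63 and 289.47 in TAM-KO, without overlap (-1.13 on 7 libraries, SE 0.2, edgeR adjusted p = 0.0219). Pparg, a nuclear receptor of lipid metabolism, had 23.95 to 31.76 FPKM in TAM-WT and 18.77 to 21.66 in TAM-KO (-0.60, SE 0.11, edgeR adjusted p = 0.0201). Retnla, a secreted marker of alternative activation, had 4.97, 3.52, 5.97 and 2.32 FPKM in TAM-WT and 1.87, 2.37, 1.27 and 1.25 in TAM-KO, where the groups overlapped narrowly (-1.40, SE 0.37, edgeR adjusted p = 0.0452). The other 5 did not pass, 2 of them with a higher estimate, and the median log2 fold change of the 8 was -0.81. The study counted CD206 among its M2 markers on these libraries, and its direction here is not independent evidence.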

How the data were processed

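RNA of sorted TAMs was sequenced in 4 TAM-WT and 4 TAM-KO libraries, grouped by the genotype in the labels. The submitters' processing notes name HISAT2 2.0.4, Bowtie2 2.2.5, RSEM 1.2.12 and GRCm38.p6, and the paper describes alignment with Bowtie2 and quantification with RSEM. The authors deposited RSEM expected counts and FPKM per gene for each library, FPKM being scaled to gene length and library size by the authors. They also deposited a table of the whole series, in which their own fold changes and q values were not used. The table of TAM-KO replicate 1 lacked a run of 5311 genes; 629 of its values, where the other tables hold none, were not used. Values held in both sources were equal in 30780 of 30780 cases (tolerance 0.01), and the table of the whole series supplied 1188 of 4214 missing genes.

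Expected counts, rounded to whole numbers, were fitted with edgeR 4.0.16 (TMM, filterByExpr, quasi-likelihood test, R 4.3.3), on 8 libraries for 9396 genes and on the 7 other than TAM-KO replicate 1 for 3016, with Benjamini-Hochberg adjustment over both sets. A call was an adjusted p of at most 0.05, and a DEG also a fold change of at least 2. Alternatives were DESeq2 1.42.0, limma 3.58.1 on log2(FPKM + 1) and log2(FPKM + 0.1), other filters and scaling, a replicate block and each library left out. Fits with TAM-KO replicate 1 filled in and with Stat5a and Stat5b summed were added after seeing the data. The rule that selected the 10 genes already took a missing TAM-KO replicate 1 value from the table of the whole series where listed. Only the main edgeR fit was tested on simulated counts, with changes larger than those of the 10 genes, and the alternatives were not. Replicates were taken as the labels number them, and p-values set the group difference against the spread between these libraries. Named genes were the 10 members, Colec11, the gene of each list with the most counts and up to 3 called genes with the largest change; members and lists were chosen with earlier results of these data known. Other STAT family members are not reported here.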

Additional observations from a re-analysis of the deposited data

Results flagged for a closer look

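Single values far from the rest of their group were sought among 59 groups of 4 values (the genes named by rule and the marker sums), where about 2.95 such values are met by chance, and 6 were found by Dixon's criterion. Socs2 stood at 3.59 FPKM in TAM-KO replicate 1, against 2.25 for the nearest of its group. Il4ra was at 67.0 FPKM in TAM-WT replicate 2, where the nearest value was 94. The T cell marker sum of TAM-WT replicate 1 was 13.9 FPKM (nearest 3.52) and its NK cell sum was 11.5 (nearest 1.94). Neutrophil markers summed to 162 FPKM in TAM-KO replicate 1 (nearest 31.5), and endothelial cell markers to 4.07 in TAM-WT replicate 4 (nearest 2.29).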

How the results depend on the processing

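With 4 libraries per group, calls near the threshold depended on single libraries. Of 159 refits of the 10 genes, 139 kept direction and side of the threshold, most of them for genes that were not called in any case. The 11 refits in which a call was lost were all of Socs1 or Stat2, the 2 called genes. The number of the 10 called was 2, and 4 with limma on log2(FPKM + 1), 0 with TAM-KO replicate 1 filled in, 0 at an adjusted p of at most 0.01 and 0 to 2 with a library left out. The number of DEGs among them was 1, and 2 with limma on log2(FPKM + 0.1), 2 at a fold change of at least 1.5, 0 with TAM-KO replicate 1 filled in and 0 to 1 with a library left out. Of the 75 signalling genes, 8 were called, and 24 with DESeq2, 14 with limma at either pseudocount, 0 at an adjusted p of at most 0.01 and 0 to 24 with a library left out. DEGs among them numbered 5, and 10 with DESeq2, 8 and 10 with limma (pseudocount 1 and 0.1), 3 with at least 10 counts in every library and 0 to 9 with a library left out. Over all genes, the share called was 9.81%, and 18.2% with DESeq2 and 10.7% and 10.3% with limma (pseudocount 1 and 0.1). It was 8.95% with TAM-KO replicate 1 filled in and 0.617% to 22.2% with a library left out. DEGs over all genes numbered 314, and 438 with DESeq2 and 200 and 362 with limma. They numbered 274 with TAM-KO replicate 1 filled in and 28 to 523 with a library left out. The cause of these differences was not tested. Stat6 changed sign, to 0.10 and 0.11 with limma (pseudocount 1 and 0.1) and to 0.04, 0.03 and 0.02 without TAM-WT replicate 3, TAM-WT replicate 4 and TAM-KO replicate 1 (-0.08 to 0.04 over the libraries left out).

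Replicate numbers gave no clear pairing of the libraries (deviations of same-numbered libraries correlated at -0.325, 0.02, -0.234 and 0.261, and not every library correlated best with its own number). With 4 libraries per group, such correlations cannot exclude a pairing. A replicate block gave 14 called signalling genes and 10 DEGs, and 2 called genes among the 10, where it called 8.7% of all genes. With the block, Socs3 moved to a log2 fold change of -0.47 (SE 0.11, edgeR adjusted p = 0.0552), from -0.32 (SE 0.25) without it, and was still not called.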
